A study of Mus musculus with 6 samples.

Results

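Colony-stimulating factors, the IL-6 family and the alarmins are secreted or released signals that act on blood cells, vessel walls and stromal cells. The genes Csf1, Csf2, Csf3, Kitl, Il6, Il11, Lif, Il33, Il1a and Il15 were described here, in messenger RNA from MCEC, a mouse cardiac endothelial cell line. They were chosen by gene symbol, and all 10 were found among 78317 gene rows of the expression table. The series holds 3 Fat4 knockdown samples (ShFat4, a short hairpin RNA against the atypical cadherin Fat4) and 3 control samples, labelled wild type, of the same line. No drug, cytokine or time course is named, and the labels do not say whether the controls carried a hairpin, how many hairpins were used or whether the replicates were separate cultures. The p-values therefore measure the spread between these samples, which may be technical.

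Library totals lay between 10305810 and 11870091 counts. Fat4 itself had 8.5, 10 and 9 counts in knockdown and 10, 22 and 31.5 counts in control, so control replicate 1 was close to the knockdown libraries (log2 fold change -1.17, SE 0.35, edgeR adjusted p = 0.033). Of 13372 genes tested with edgeR, 1129 (8.44%) were lower and 1195 (8.94%) higher in knockdown at an adjusted p under 0.05. The defining endothelial markers Tie1, Vwf, Cldn5, Erg and Emcn had no count in any library, and 8 of 14 endothelial markers were under 1 CPM throughout (CPM, a gene's counts scaled to a common library size). Of the others, Cd34 was at 53.1 CPM in knockdown and 52.5 CPM in control, and 2 of the 5 tested endothelial markers were called lower, Eng (log2 fold change -0.42, edgeR adjusted p = 0.0195) and Flt1 (-0.59, edgeR adjusted p = 0.00743). Mesothelial and epicardial markers summed to 1518 to 1563 CPM in knockdown and 1704 to 1798 CPM in control. Most of that came from Upk1b (667 CPM in both groups) and Upk3b (420 CPM in knockdown, 563 CPM in control). Msln, Krt19, Wt1, Lrrn4 and Tbx18 had group means of 49.3 to 134 CPM. Krt8, Krt18 and Muc16 had group means of 1.1 to 2.37 CPM, and Tcf21 had no count. Of the 10 tested genes, 3 were lower in knockdown (Upk3b, Wt1 and Lrrn4). Of 11 fibroblast and mural markers, 4 were under 1 CPM in every library, and Col1a2 averaged 1.63 CPM in knockdown and 1.11 CPM in control. This list summed to 2264 to 2460 CPM in knockdown and 2648 to 2724 CPM in control. Col1a1 made up most of that sum and was called lower, at 1513 CPM in knockdown and 1964 CPM in control, while 5 of the 7 tested genes had a positive log2 fold change (median 0.18) and Acta2 and Thy1 were called higher. Of 13 leukocyte markers, 11 were under 1 CPM in every library, and the list summed to 7.1 to 9.75 CPM in knockdown and 7.32 to 8.64 CPM in control. Ribosomal protein genes took 13.95% ± 0.37 of counts in knockdown and 12.2% ± 0.62 in control (SD, n = 3 each; exact permutation p = 0.1, the smallest that 3 against 3 allows). The part of these shifts in the results was not tested, beyond a fit without mitochondrial and ribosomal protein genes.

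As background, colony-stimulating factors drive the survival and maturation of myeloid cells. CSF1 and stem cell factor, encoded by Kitl, bind the receptor tyrosine kinases CSF1R and KIT. GM-CSF and G-CSF, encoded by Csf2 and Csf3, bind cytokine receptors that have no kinase domain and rely on JAK kinases. IL-6, IL-11 and LIF each use a further receptor chain together with gp130, the product of Il6st. These cytokines signal through JAK kinases and STAT3, which induces the feedback inhibitor SOCS3. IL-33 and IL-1 alpha are alarmins, kept inside the cell and released on damage. IL-15 supports lymphocytes and is presented by IL-15 receptor alpha. Endothelial cells are a known source of several of these factors when activated by inflammatory signals.

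Upstream sequences are shown for Csf1 and Kitl, the cytokine genes with separated groups, for Il6, a near-silent inducible gene, and for Socs3, the feedback gene that fell. Each run is the 250 bases before the annotated start, 5′ to 3′ on the gene's strand, from RefSeq on GRCm38.p6, which is not the build of the expression table. Capitals mark matches on either strand to 6 motifs.
Csf1, chr3:107760470-107760719, minus strand: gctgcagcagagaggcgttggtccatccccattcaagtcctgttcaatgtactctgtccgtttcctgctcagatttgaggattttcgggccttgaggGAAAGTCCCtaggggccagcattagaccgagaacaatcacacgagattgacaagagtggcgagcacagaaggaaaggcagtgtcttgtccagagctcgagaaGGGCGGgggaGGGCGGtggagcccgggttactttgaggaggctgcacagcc
Kitl, chr10:100015571-100015820, plus strand: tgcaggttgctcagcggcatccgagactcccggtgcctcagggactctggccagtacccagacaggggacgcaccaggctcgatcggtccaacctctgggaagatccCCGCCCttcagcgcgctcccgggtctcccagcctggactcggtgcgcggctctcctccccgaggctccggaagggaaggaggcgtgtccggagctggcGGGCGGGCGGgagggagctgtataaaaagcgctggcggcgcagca
Il6, chr5:30012864-30013113, plus strand: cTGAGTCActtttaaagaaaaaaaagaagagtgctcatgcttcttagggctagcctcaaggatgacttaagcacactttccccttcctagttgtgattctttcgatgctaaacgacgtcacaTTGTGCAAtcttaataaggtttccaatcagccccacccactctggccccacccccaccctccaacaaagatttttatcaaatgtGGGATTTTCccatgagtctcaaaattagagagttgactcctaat
Socs3, chr11:117969367-117969616, minus strand: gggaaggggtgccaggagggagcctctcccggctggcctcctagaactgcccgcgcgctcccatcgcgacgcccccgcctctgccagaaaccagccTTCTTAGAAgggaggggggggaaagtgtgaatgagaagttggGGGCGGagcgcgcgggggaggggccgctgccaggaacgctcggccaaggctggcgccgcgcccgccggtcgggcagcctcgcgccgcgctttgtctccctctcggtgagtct

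The motifs were an NF-kappaB-type motif (GGGNNTTTC), a STAT motif (TTCNNNGAA), a C/EBP motif (TTGCNNAA), an AP-1 motif (TGANTCA), an SP1 motif (GGGCGG) and a TEAD motif (GGAATG), where N is any base. Among 32851 RefSeq windows of the same length, 3.72% held the NF-kappaB-type motif, 7.02% the STAT motif, 9.56% the C/EBP motif, 6.75% the AP-1 motif, 32.7% the SP1 motif and 12.6% the TEAD motif. The Csf1 window held the NF-kappaB-type motif, as its reverse complement, and 2 SP1 matches. The Kitl window held 3 SP1 matches and no other motif, and its last pair of matches shared 2 bases. The Il6 window held 1 match each to the NF-kappaB-type, C/EBP and AP-1 motifs. The Socs3 window held 1 STAT and 1 SP1 match. These letters describe the windows only. RefSeq windows were found for 8 of the 10 genes. The printed windows held no TEAD match. Among the windows not printed, TEAD matches lay in that of Csf2 and in both of Il33. AP-1 matches lay in those of Lif and Il1a and in 1 of 2 Il11 windows. C/EBP matches lay in that of Csf2 and in 1 of 2 Il33 windows. SP1 matches lay in that of Csf2 and in both of Il11.

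Levels spanned a wide range across the family. Divided by gene length, Csf1 was by far the most abundant, with a mean of 48.0 CPM per kilobase over the 6 libraries and a range of 43.2 to 53.6. Il33 followed at 5.34 (range 4.51 to 6.33), Lif at 3.85 (3.32 to 4.19) and Kitl at 3.81 (3.14 to 4.34), all in CPM per kilobase. The lowest Il33 library lay above the highest Lif and Kitl libraries. The ranges of Lif and Kitl overlapped, so the order of Lif and Kitl is not resolved. Il15, at 2.01 CPM per kilobase (1.48 to 2.38), and Il11, at 0.772 (0.587 to 1.2), lay below these 3 genes without overlap. Csf3 and Il6, at 0.289 and 0.269 CPM per kilobase, overlapped each other, and Csf2, at 0.039, was barely detected. Il1a had no count. The sources used here do not say whether the libraries cover whole transcripts evenly, which limits comparison between genes. Without division by length, the order became Csf1, Kitl, Lif, Il33, Il15, Il11, Il6, Csf3, Csf2 and Il1a.

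**Figure D1:**
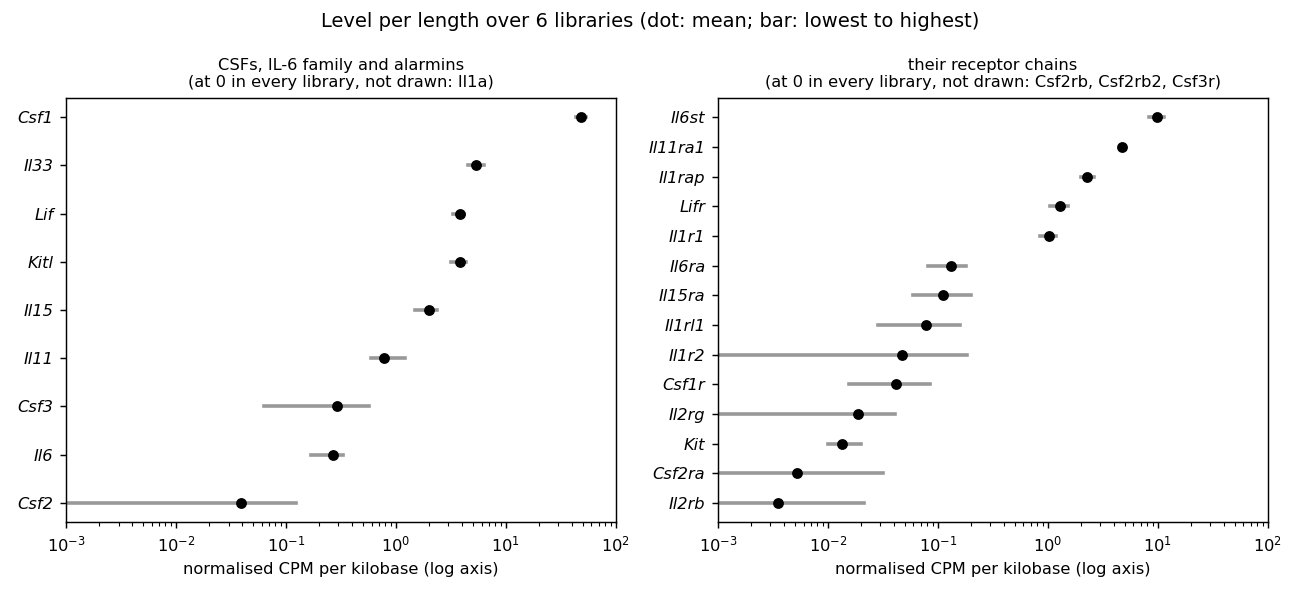
Mean level of each cytokine gene (left) and each receptor chain (right) in normalised CPM per kilobase on a log axis, with bars from the lowest to the highest of 6 libraries; bars that reach 0 run off the left edge. Csf1 stands at 48.0 CPM per kilobase, and Il6st leads the receptors at 9.79.

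Of the 10 genes, 6 had enough counts to be tested. Csf1 was lower in knockdown, none was higher, and 5 were not called; 8.44% of all tested genes were called lower. The median log2 fold change of the 6 was -0.15, against -0.01 over all genes tested (quartiles -0.16 and 0.14), and 5 of the 6 were negative. Groups did not overlap for Csf1 and Kitl, both lower in knockdown, an arrangement that 17.5% of all tested genes showed. The genes with low counts in both groups could not pass the filter, so these counts do not stand for all 10.

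Csf1 encodes macrophage colony-stimulating factor, the main survival factor of macrophages. The table places it on chromosome 3 of GRCm39 between 107648364 and 107667785 on the minus strand (ENSMUSG00000014599). It had 228, 229 and 241 normalised CPM in knockdown, against 268, 272 and 283 CPM in control. Every knockdown library lay below every control library, and the spread within each group was small. In such bulk samples, fewer expressing cells and less RNA per cell cannot be told apart. The means were 232 ± 7.09 CPM in knockdown and 274 ± 7.65 CPM in control (SD, n = 3 each), a decrease of 15.3% in the fitted values. The log2 fold change was -0.24 (SE 0.06, edgeR adjusted p = 0.00806). The call held when any single library was left out, with edgeR adjusted p up to 0.0482, and was lost after a correction for GC content and length, which gave -0.14 (edgeR adjusted p = 0.0689).

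Kitl encodes stem cell factor, a ligand for haematopoietic stem cells, mast cells and melanocytes. It lies on chromosome 10 between 99851492 and 99936278 on the plus strand. Knockdown libraries had 18.6, 21.4 and 21.9 CPM, and control libraries had 24.8, 23.1 and 25.6 CPM. The groups did not overlap, but the gap between them was narrow. The log2 fold change of -0.25 was as large as that of Csf1 with a wider SE of 0.09, and Kitl was not called (edgeR adjusted p = 0.059). It was called with scaling by library size alone (-0.31, edgeR adjusted p = 0.0254) and after the GC and length correction (-0.32, edgeR adjusted p = 0.019). The single called gene therefore differed between settings: Csf1 without the correction and Kitl with it.

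Csf2 and Csf3 encode the granulocyte-macrophage and granulocyte factors. Csf2 had 1, 1 and 0 counts in knockdown and none in control. Csf3 had 1, 4 and 7 counts in knockdown and 3, 9 and 3 in control, or 0.372 ± 0.273 CPM in knockdown and 0.443 ± 0.305 CPM in control (exact permutation p = 0.7, two-sided). Groups overlapped for both genes. A count of 0 in a library allows a level of up to 0.253 to 0.291 CPM (3 counts, counting error only). A difference in Csf2 below that level could not be detected at this depth.

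**Figure D2:**
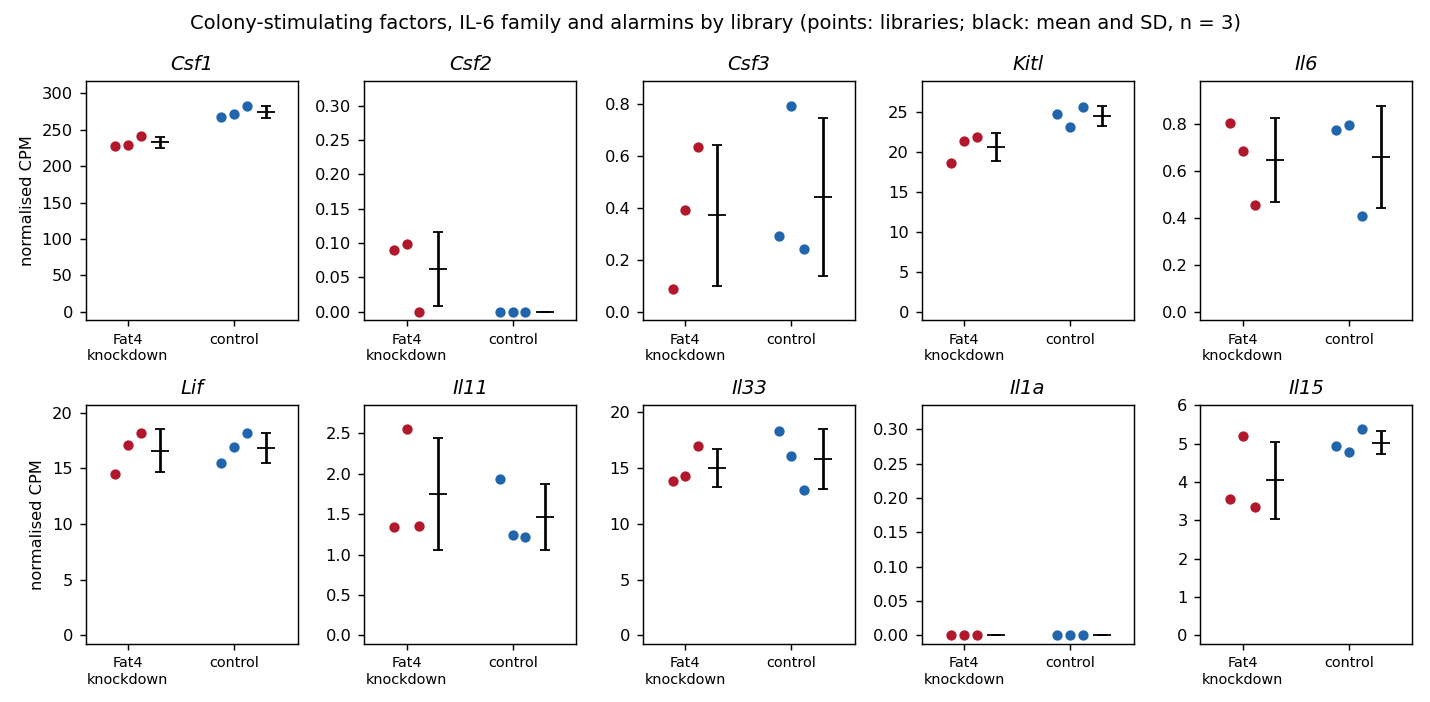
Normalised CPM of the 10 genes in each library, with Fat4 knockdown (red) left of control (blue) and the mean and SD of 3 libraries in black; each panel has its own axis from 0. Only Csf1 and Kitl have groups that do not overlap, and Il1a is at 0 throughout.

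None of the 3 IL-6 family genes was called, and Il6 was too low to test in edgeR. Lif, which maintains pluripotency in mouse embryonic stem cells and acts broadly through gp130, had 14.5, 17.1 and 18.2 CPM in knockdown and 15.5, 16.9 and 18.2 CPM in control. The groups overlapped almost completely (log2 fold change -0.03, SE 0.10, edgeR adjusted p = 0.885). Il11, a gp130 cytokine known for its action on fibroblasts, had 15, 26 and 15 counts in knockdown and 20, 14 and 15 counts in control, or 1.75 ± 0.691 CPM in knockdown and 1.47 ± 0.412 CPM in control (SD, n = 3 each). The highest library was knockdown replicate 2, and without it the sign of the difference turned from 0.26 (SE 0.31, edgeR adjusted p = 0.623) to -0.10. Il6, the acute-phase cytokine, had 9, 7 and 5 counts in knockdown and 8, 9 and 5 counts in control. That is 0.648 ± 0.178 CPM in knockdown and 0.660 ± 0.219 CPM in control (SD, n = 3 each; exact permutation p = 1.0, two-sided).

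The alarmins were split between a moderately expressed gene and a silent one. Il33 encodes a nuclear cytokine stored in endothelial and epithelial cells. It had 13.8, 14.3 and 17.0 CPM in knockdown and 18.3, 16.1 and 13 CPM in control, so both groups spanned nearly the same range. The log2 fold change was -0.06 (SE 0.12, edgeR adjusted p = 0.783). Il1a, which encodes the membrane-anchored and releasable IL-1 alpha, had no count in any of the 6 libraries. Il15, the lymphocyte growth factor, had 3.57, 5.19 and 3.36 CPM in knockdown and 4.95, 4.77 and 5.37 CPM in control. Knockdown replicates 1 and 3 lay below every control library, and knockdown replicate 2 lay among them. Il15 was not called (log2 fold change -0.33, SE 0.18, edgeR adjusted p = 0.217).

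**Figure D3:**
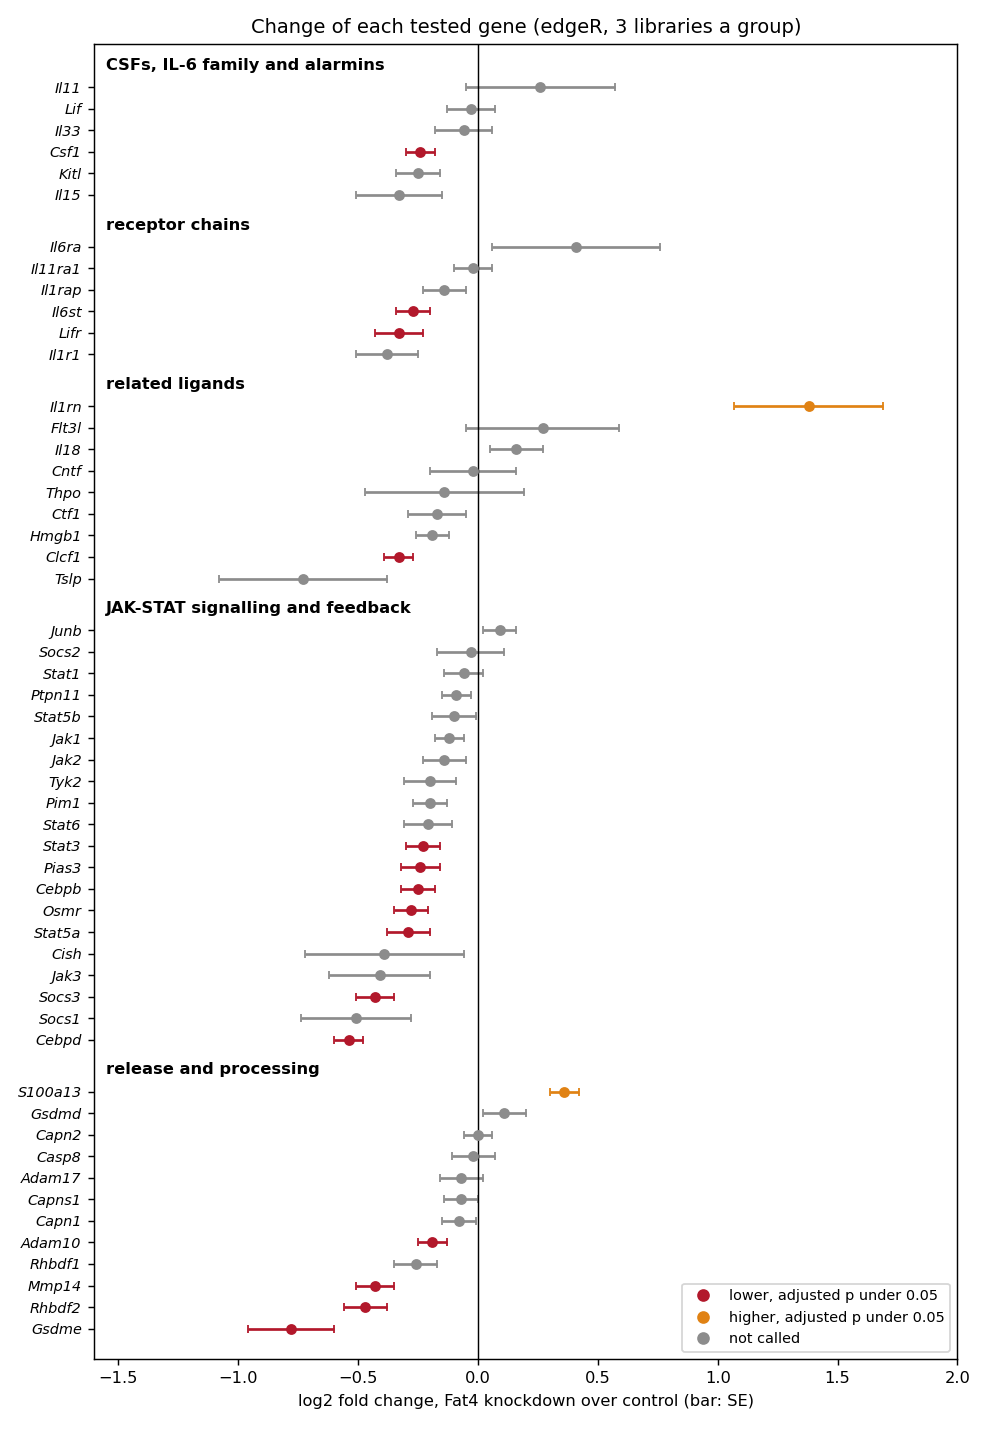
Log2 fold change of each tested gene, Fat4 knockdown over control, with its SE, grouped by role; red is lower, orange higher and grey not called at an edgeR adjusted p under 0.05. Il1rn, at 1.38, is the only related ligand to the right of 0 that was called.

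The receptor side of the family was uneven. Among 17 receptor chains, Il6st was the most abundant at 9.79 CPM per kilobase, followed by Il11ra1 at 4.69, Il1rap at 2.26, Lifr at 1.28 and Il1r1 at 1.02. Il6ra, Il15ra and Il1rl1, the IL-33 receptor, were at 0.133, 0.112 and 0.0784 CPM per kilobase. Il1r2, a decoy receptor, was at 0.0472, and the shared lymphoid chains Il2rg and Il2rb were at 0.0187 and 0.00353 CPM per kilobase. The receptors for the colony-stimulating factors were near or at 0: Csf1r at 0.0417, Kit at 0.0134 and Csf2ra at 0.00527 CPM per kilobase, with no count for Csf2rb, Csf2rb2 or Csf3r. Csf1r had 1, 1 and 2 counts in knockdown and 5, 3 and 4 in control. Its exons overlap those of Hmgxb3 on the opposite strand over 873 bases, and the sources used here give no strand setting for the counting. Reads of either gene cannot be told apart there.

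Of the 6 receptor chains tested, 2 were lower in knockdown and none was higher, against 8.44% and 8.94% of all tested genes. Their median log2 fold change was -0.21, against -0.01 over all tested genes. Il6st, the shared signal chain gp130, had 92.5, 98.1 and 105 CPM in knockdown and 109, 119 and 128 CPM in control. The groups did not overlap (log2 fold change -0.27, SE 0.07, edgeR adjusted p = 0.0171). Lifr, which pairs with gp130 for LIF, had 11.2, 13.5 and 12 CPM in knockdown and 14.3, 16.5 and 15.1 CPM in control, again without overlap. Its log2 fold change was -0.33 (SE 0.10, edgeR adjusted p = 0.0396). Neither call survived the GC and length correction, and each dropped out in 4 of the 6 leave-one-out runs. Lifr was also not called by DESeq2 (adjusted p = 0.155). Leaving out 1 library gave between 0 and 3 receptor chains called lower.

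The other receptor chains were not called with the main settings. Il1r1, the signalling IL-1 receptor, averaged 5.65 ± 0.374 CPM in knockdown and 7.33 ± 0.377 CPM in control (log2 fold change -0.38, SE 0.13, edgeR adjusted p = 0.0523). Its groups did not overlap, and Il1r1 was called lower with library-size scaling (edgeR adjusted p = 0.0277), after the GC and length correction (edgeR adjusted p = 0.0482) and without control replicate 1 (edgeR adjusted p = 0.0432). Il1rap, its accessory chain, had a log2 fold change of -0.14 (edgeR adjusted p = 0.297). Il11ra1 had -0.02 (edgeR adjusted p = 0.902); its counts are fractional in several libraries, and it has near-identical copies in the mouse genome, so its level is uncertain. Il6ra had 0.41 (edgeR adjusted p = 0.465) from 8 to 17 counts a library.

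Related ligands outside the 10 included a gene with a large difference. Of 24, 9 were tested, 1 was higher, 1 was lower and the median log2 fold change was -0.14; 8.94% of all tested genes were called higher. Il1rn encodes the IL-1 receptor antagonist, which blocks IL-1 alpha and IL-1 beta at their receptor. It had 26, 24 and 28 counts in knockdown and 6, 17 and 8 counts in control, that is 2.32, 2.35 and 2.54 CPM in knockdown and 0.583, 1.5 and 0.651 CPM in control. The groups did not overlap, and control replicate 2 was the highest control. Control replicates 1 and 3 had few counts, so Il1rn passed the count filter only through its knockdown libraries. Its call is limited by that selection. The log2 fold change was 1.38 (SE 0.31, edgeR adjusted p = 0.00635), and with 1 library left out it ranged from 1.17 (without control replicate 3, edgeR adjusted p = 0.0367) to 1.94 (without control replicate 2). The agonists it opposes, Il1a and Il1b, had no count in any library. DESeq2 gave Il1rn no adjusted p.

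Clcf1 encodes cardiotrophin-like cytokine factor 1, a ligand of gp130-containing receptors. It had 52.8, 50.5 and 54.0 CPM in knockdown and 66.0, 68.2 and 63.8 CPM in control, with tight groups that did not overlap. The log2 fold change was -0.33 (SE 0.06, edgeR adjusted p = 0.00257), and the call held in all 18 alternative settings. Hmgb1, a nuclear alarmin, was at 201 ± 19.6 CPM in knockdown and 229 ± 15.5 CPM in control and was not called (edgeR adjusted p = 0.0799). The other 6 tested ligands, Tslp, Ctf1, Thpo, Cntf, Il18 and Flt3l, were not called either, with log2 fold changes from -0.73 for Tslp to 0.27 for Flt3l. Exons of Flt3l overlap those of Gm45713 over 856 bases, and exons of Cntf overlap those of Gm44505 over 847 bases. Both overlaps are on the same strand, so the levels of Flt3l and Cntf are uncertain. The 15 untested ligands were under 1 CPM in every library, and 7 of them had no count, including Osm, Il3 and S100a9.

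The genes of JAK-STAT signalling and feedback, a list that also holds the receptor gene Osmr, were all expressed. Of 20 tested, 7 were lower in knockdown and none was higher, 19 had a negative log2 fold change, and the median was -0.22. Over all tested genes, 8.44% were called lower, 8.94% were called higher, 52.2% were negative and the median was -0.01. After the GC and length correction, 3 of the 20 were lower and 1 was higher. Leaving out 1 library gave 2 to 5 lower genes. Cebpd, a transcription factor gene induced through STAT3, had 55.2, 53.3 and 53.4 CPM in knockdown and 76.2, 79.0 and 80.2 CPM in control. The groups were far apart for their spread (log2 fold change -0.54, SE 0.06, edgeR adjusted p = 5.23e-05). Its exons overlap those of Spidr on the opposite strand. Socs3 had 19.9, 19.5 and 21.4 CPM in knockdown and 27.5, 26.7 and 28 CPM in control. Its log2 fold change was -0.43 (SE 0.08, edgeR adjusted p = 0.00224), and the calls of Cebpd and Socs3 both held in all 18 alternative settings. A part of STAT3 in these differences was not tested.

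Osmr, the oncostatin M receptor that pairs with gp130, averaged 52.9 ± 1.62 CPM in knockdown and 64.3 ± 4.20 CPM in control (log2 fold change -0.28, SE 0.07, edgeR adjusted p = 0.00877). The Osmr call was lost without control replicate 2 (edgeR adjusted p = 0.0761). Stat5a, a signal transducer for GM-CSF and several other cytokines, averaged 14.9 ± 1.08 CPM in knockdown and 18.2 ± 1.17 CPM in control (log2 fold change -0.29, SE 0.09, edgeR adjusted p = 0.0461), and lost its call in 11 of 18 settings. The other 3 lower genes were Cebpb, Stat3 and Pias3. Pias3, an inhibitor of STAT3 (log2 fold change -0.24, edgeR adjusted p = 0.0496), lost its call in 13 of 18 settings, limma-voom and DESeq2 among them. Cebpb, a C/EBP transcription factor gene (log2 fold change -0.25, edgeR adjusted p = 0.0197), lost its call in 5 settings and was at -0.11 after the GC and length correction (edgeR adjusted p = 0.306). Stat3 had 147, 151 and 148 CPM in knockdown and 154, 185 and 183 CPM in control, so control replicate 1 lay near the knockdown libraries. Its log2 fold change was -0.23 (SE 0.07, edgeR adjusted p = 0.0301), and leaving out a library ended the call in 5 of 6 cases. After the GC and length correction it was at -0.09 (edgeR adjusted p = 0.336). Stat3 and Stat5a share 72 exonic bases on opposite strands.

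**Figure D4:**
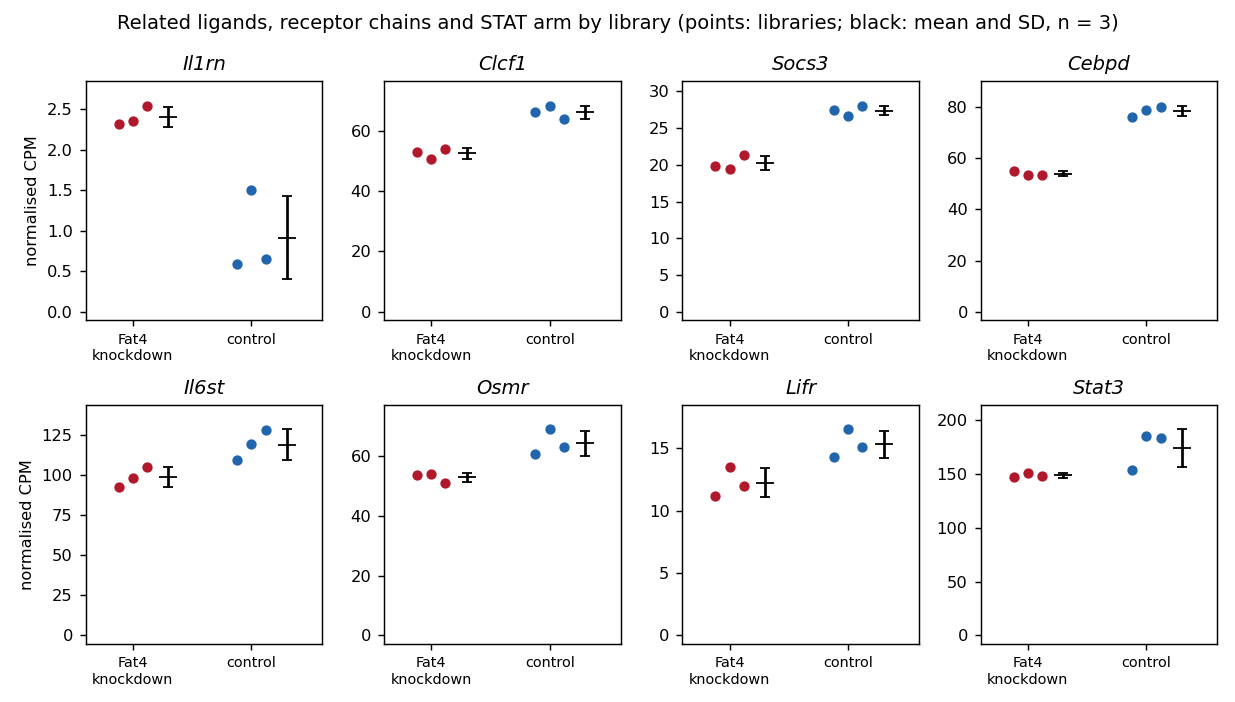
Normalised CPM by library of 2 related ligands, 3 receptor chains and 3 JAK-STAT genes, with Fat4 knockdown (red) left of control (blue) and the mean and SD of 3 libraries in black; each axis starts at 0. Cebpd lies between 53.3 and 55.2 CPM in knockdown and between 76.2 and 80.2 CPM in control.

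Genes of cytokine release and processing included both directions. Of 12 tested, 4 were lower and 1 was higher in knockdown, against 8.44% lower and 8.94% higher among all tested genes, and the median log2 fold change was -0.08. Gsdme, a pore-forming gasdermin, averaged 3.78 ± 0.638 CPM in knockdown and 6.41 ± 1.40 CPM in control (log2 fold change -0.78, SE 0.18, edgeR adjusted p = 0.00896), a call lost without knockdown replicate 1. Rhbdf2, the iRhom2 gene linked to ADAM17 maturation, averaged 15.4 ± 1.11 CPM in knockdown and 21.3 ± 1.63 CPM in control (log2 fold change -0.47, edgeR adjusted p = 0.00361). The related gene Rhbdf1 averaged 20.5 CPM in knockdown and 24.4 CPM in control and was not called (edgeR adjusted p = 0.0656). Mmp14, a membrane-bound metalloproteinase, averaged 32.6 ± 3.41 CPM in knockdown and 43.9 ± 3.52 CPM in control (log2 fold change -0.43, edgeR adjusted p = 0.00335). S100a13, a partner in the non-classical export of IL-1 alpha, averaged 53.3 ± 0.265 CPM in knockdown and 41.6 ± 0.463 CPM in control (log2 fold change 0.36, edgeR adjusted p = 0.0016). The fourth lower gene was Adam10, a sheddase (log2 fold change -0.19, edgeR adjusted p = 0.0489), which lost its call in 10 of 18 settings. Adam17, a sheddase of membrane-bound CSF1, was not called (log2 fold change -0.07, edgeR adjusted p = 0.629).

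Regulators of cytokine mRNA decay gave no call with the main settings of edgeR, with limma-voom or with DESeq2. Of 12 tested, 3 had an unadjusted edgeR p under 0.05, a share below the 31.2% of all tested genes, and the median log2 fold change was -0.04. Other edgeR settings gave a few calls in either direction: 2 higher after the GC and length correction or without control replicate 1, 1 higher with upper-quartile scaling or without knockdown replicate 3, and 1 lower with library-size scaling. Zfp36, which destabilises AU-rich cytokine messages, averaged 7.66 ± 0.898 CPM in knockdown and 8.86 ± 0.910 CPM in control (edgeR adjusted p = 0.299).

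**Figure D5:**
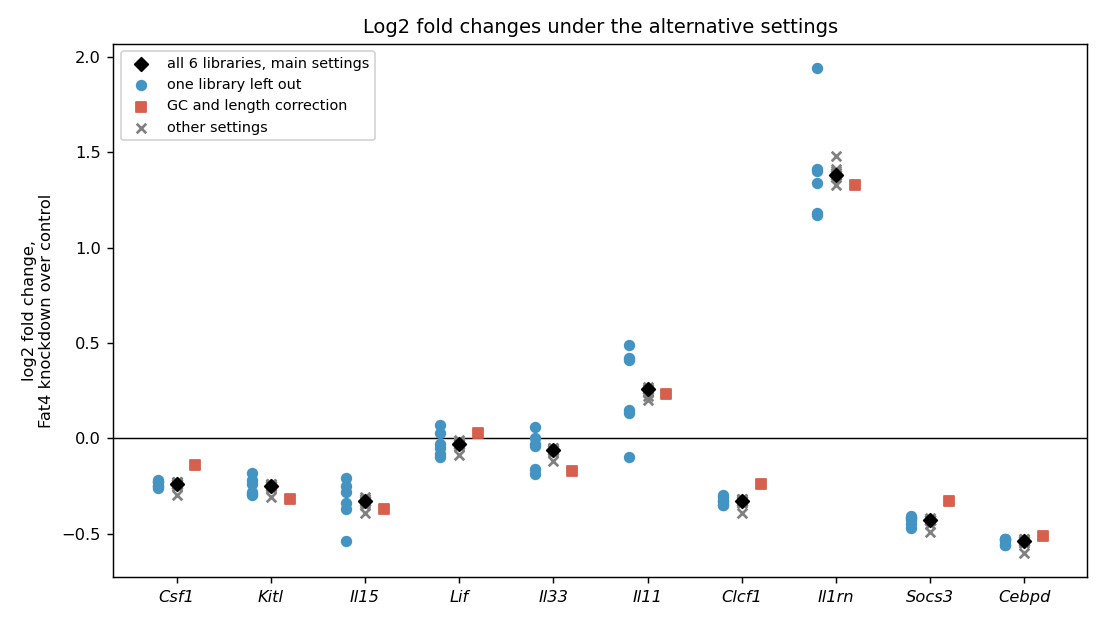
Log2 fold change, Fat4 knockdown over control, of 10 genes under the main settings (black), with 1 library left out (blue), after the GC and length correction (red) and under the other settings (grey). Csf1 ranges from -0.30 to -0.14, and Lif, Il33 and Il11 cross 0.

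By profile over the 6 libraries, among 8718 genes that reached 10 CPM in either group mean, the genes most like Csf1 were Washc4 and Ckap4 (Pearson r of log2 CPM 0.998 and 0.997). Those most like Kitl were Myh10 and Cd276 (0.991 and 0.990). Those most like Lif were Unc13b and Snx30 (0.969 and 0.967), and those most like Il33 were Smarca2 and Zfp512b (0.972 and 0.963). With 6 libraries that share a contrast and a depth, 319 genes exceeded an r of 0.95 with Csf1, so these are descriptions only.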

How the data were processed

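Total RNA was converted to cDNA, tagmented and sequenced, per the labels' protocols, from 3 Fat4 knockdown and 3 control MCEC samples. The genome build GRCm39 and the tools STAR 2.7.11, SAMtools 1.22.1, fastp 0.24.0, MultiQC 1.32 and FastQC 0.12.1 come from the submitters' processing notes. The sources used here give no counting tool, annotation or strand rule. Gene values, as deposited, are estimated counts, of which 29% of the nonzero ones were not whole (tolerance 1e-06). The deposited CPM equal each count divided by the library total. Gene lengths are a column of the deposited table.

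Counts were rounded and 92 spike-in rows left out. After filterByExpr and TMM scaling, knockdown was compared with control by edgeR 4.0.16 (R 4.3.3; robust quasi-likelihood test, no block). P-values were adjusted by Benjamini-Hochberg over 13372 genes, at a threshold of 0.05. The SE is the log2 fold change divided by the square root of F, and printed CPM use TMM-scaled totals. No pair of replicates agreed within sampling noise. Robust fitting was chosen because it gave the gene count of an earlier analysis of these data; the fit without it is an alternative.

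The 10 genes, the pathway lists and the marker lists were chosen with earlier results of these data known. All 10 genes and every receptor chain are named; other lists name up to 4 called genes by size, and further genes were named after their values were seen. The 6 motifs were chosen from knowledge of these factors. The NF-kappaB-type motif was shortened by 1 base after its matches had been seen, so that its letters could be printed; the shorter form is matched by more windows. Alternatives used limma 3.58.1, DESeq2 1.42.0, other scalings and filters, a GC and length correction (mgcv 1.9.3; 95.6% of tested genes had a GC value) and each library left out. Scripts were tested on simulated data, with recovery required only for changes larger than most of those described here.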

Additional observations from a re-analysis of the deposited data

How the results depend on the processing

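Across 18 alternative settings, the number of genes changed was 2324 in the main analysis, 1535 with DESeq2, 1621 after the GC and length correction, and 1029 (without control replicate 2) to 3077 (without control replicate 1) with 1 library left out. Between 1 and 2 of the 10 genes were called: 2 with library-size scaling (Csf1 and Kitl), which moved the median of all genes by -0.057, and 1 in each other setting and with any 1 library left out. That 1 was Csf1 except after the GC and length correction, where it was Kitl. Among the cytokine and pathway genes followed across settings, signs reversed only for genes not called. With 1 library left out, Il11 lay between -0.10 (without knockdown replicate 2) and 0.49. Lif was 0.03 after the GC and length correction, 0.07 without knockdown replicate 1 and 0.03 without control replicate 3. Il33 lay between -0.19 and 0.06 (without control replicate 1). Il11ra1 was 0.07 after the GC and length correction and 0.01 without control replicate 2. The cause of these differences was not tested. Same-numbered libraries did not deviate together (correlations -0.211, -0.052 and -0.05), and differently numbered ones gave -0.108 to 0.15. A weak pairing, or one in few genes, would not show in this check, so whether the numbers pair the samples stays unknown. With the replicate block, 2001 genes and 1 of the 10 were called, and the calls of Stat5a and Pias3 were lost (edgeR adjusted p = 0.0589 and 0.0698). Without mitochondrial and ribosomal protein genes, 2269 genes and 1 of the 10 were called. The calls of Pias3 and Adam10 were then lost (edgeR adjusted p = 0.052 and 0.0514). Depth limits Csf2, Csf3, Il6 and Il1a, which were under 1 CPM in every library.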
